A study of Mus musculus with 2 samples.

Results

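The genes described here are 10 genes known to respond to beta-catenin, the effector of the canonical Wnt pathway: Axin2, Lef1, Tcf7, Nkd1, Sp5, Notum, Rnf43, Znrf3, Lgr5 and Rspo3. They were chosen by name, as known responders, with earlier results of these libraries known. All 10 are listed among the 26100 genes that both libraries share. Droplet single-cell RNA sequencing (10x Genomics 3′ kit, version 3) was made from 2 mouse cultures, with 1 library each. MEF, embryonic fibroblasts of the mouse, are connective tissue cells, and their treatment label names fibroblast medium. Their protocol field repeats the F/R/C text of iMPC, so the labels conflict on whether MEF had these compounds, and the treatment label was followed. iMPC are induced myogenic progenitor cells, derived from MEF by expressing MyoD, a transcription factor that drives muscle fate, together with F/R/C and then kept in F/R/C medium. The design text describes them as 1 stable clone, so they stand for a single line. Both cultures carried the Pax7-nGFP transgene on a C57BL6 and DBA2 background. In the published iMPC method, F/R/C stands for forskolin, RepSox and CHIR99021, of which the last is an inhibitor of the kinase GSK3. By the treatment labels, MyoD, the medium, the clone and the library all differ together between MEF and iMPC, so their parts in a difference cannot be told apart. No library with MyoD and without F/R/C was analysed here. With 1 library per group there was no replicate check and no test, and every interval below is an exact 95% interval that covers counting error only.

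In resting cells GSK3 acts in a destruction complex with Axin proteins and Apc, marks beta-catenin for degradation and so keeps its level low. When a Wnt ligand engages a Frizzled receptor, or when GSK3 is inhibited, beta-catenin accumulates and enters the nucleus. There it acts with the TCF/LEF family of DNA-binding proteins on target genes, and several of those targets feed back on the pathway. In skeletal muscle the pathway is known for roles in embryonic myogenesis and in the balance between satellite cell expansion and differentiation.

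The sets of cells were cut by UMIs, the unique molecular identifiers that count captured RNA molecules. In iMPC a barcode with at least 8036 UMIs and at most 20% mitochondrial UMIs was kept as a cell, which left 9349 of 9540. The MEF matrix held 6113 barcodes, of which 6043 passed the same mitochondrial limit. The 4 iMPC sets were the Pax7 set (Pax7 of at least 1 and Myog of 0, 2180 cells), the Myog set (Myog of at least 5 and Ckm of at most 1, 1724 cells), the Ckm set (Ckm of at least 5, 1037 cells) and the Dcn set (Dcn of at least 5, 553 cells). Pax7 marks satellite cells, Myog committed myoblasts, Ckm contractile muscle cells and Dcn fibroblasts. The Pax7 and Dcn sets shared 110 cells, the Dcn set shared 18 each with the Myog and Ckm sets, and 4001 iMPC cells (42.8%) fell in no set. Median depth was 18929 UMIs per cell in MEF, 18729.5 in the Pax7 set, 23857.5 in the Myog set, 42148 in the Ckm set and 18064 in the Dcn set. The called cells of both libraries shared 16 barcodes.

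Marker lists fitted the sets in part. All 7 fibroblast markers stood at 10 CPM (the gene's UMIs per 1000000 UMIs of the set) or more in MEF and in the Dcn set, where their sums were 5700 and 3004 CPM. All 7 satellite cell markers did so in the Pax7 set, with a sum of 739 CPM, all 5 committed myoblast markers in the Myog set (5000 CPM) and all 6 myocyte markers in the Ckm set (24239 CPM). Each list holds the gene that cut its iMPC set, so the level of that gene there follows from the cut. Within these sums Dcn gave 1162 CPM in the Dcn set and Pax7 116 in the Pax7 set. Myog gave 1339 CPM in the Myog set and Ckm 409 in the Ckm set. By the marker lists the sets were mixed. In the Dcn set all 7 satellite cell, 5 committed myoblast and 6 myocyte markers also stood at 10 CPM or more, with sums of 352, 631 and 2289 CPM. In the Myog set 5 of 6 myocyte markers (7276 CPM) and 6 of 7 satellite cell markers (361 CPM) did so, and in the Ckm set all 5 committed myoblast markers (3776 CPM). In the Pax7 set 5 of 7 fibroblast (562 CPM) and 5 of 6 myocyte markers (490 CPM) did so. MEF also had 3 of 7 satellite cell markers (259 CPM), 1 of 5 committed myoblast markers (152 CPM) and 1 of 6 myocyte markers (93.5 CPM) at this level. The satellite cell marker Vcam1 was higher in MEF than in the Pax7 set, at 191 and 42.6 CPM. The smooth muscle markers summed to 9883 CPM in MEF and to between 402 and 858 CPM in the iMPC sets. None of the 3 endothelial and 3 immune markers reached 10 CPM in any set, with sums of at most 0.575 and 3.2 CPM, and the macrophage marker Adgre1 was at 0 UMIs in all of them. Of 4 Schwann cell markers 1, S100b, did so in the Dcn set at 11.4 CPM, where Sox10 was at 0, and of 4 epithelial markers 1, Krt18, did so in MEF at 14.2 CPM. The part of these other cell types in the results was not tested.

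Sequence around the start site was looked up because these genes are defined by their answer to TCF/LEF proteins, which bind short AT-rich words. RefSeq start-site windows on GRCm38.p6, each holding 250 bases before and 50 bases from the start, were found for 6 of the 10 genes (Sp5, Lef1, Nkd1, Tcf7, Rnf43 and Axin2), 11 windows in all. The word ATCAAAG was searched on both strands, and so were its variant AACAAAG, its variant TTCAAAG and its variant TACAAAG. The 4 words differ in their opening letters, so no 2 of them can match at the same place on a strand. Any of the 4 occurred in 16.9% of all 32851 windows and in 2 of these 11. ATCAAAG alone occurred in 3.73% of all windows and in 1 of the 11. The windows below are Sp5 (chr2:70474673-70474972, plus strand) and the Lef1 start at chr3:131156044-131156343 (plus strand), which hold the matches, and Axin2 (chr11:108920099-108920398, plus strand), which holds none of the 4 words and had the highest ratio to MEF of the 10 genes over all iMPC cells. Capitals mark the matched words, written 5′ to 3′ on the plus strand.
Sp5: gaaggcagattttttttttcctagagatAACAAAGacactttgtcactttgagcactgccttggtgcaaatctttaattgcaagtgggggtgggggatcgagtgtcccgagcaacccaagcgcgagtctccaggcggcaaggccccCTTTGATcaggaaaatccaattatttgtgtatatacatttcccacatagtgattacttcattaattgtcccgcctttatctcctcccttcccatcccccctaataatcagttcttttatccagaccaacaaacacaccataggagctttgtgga
Lef1: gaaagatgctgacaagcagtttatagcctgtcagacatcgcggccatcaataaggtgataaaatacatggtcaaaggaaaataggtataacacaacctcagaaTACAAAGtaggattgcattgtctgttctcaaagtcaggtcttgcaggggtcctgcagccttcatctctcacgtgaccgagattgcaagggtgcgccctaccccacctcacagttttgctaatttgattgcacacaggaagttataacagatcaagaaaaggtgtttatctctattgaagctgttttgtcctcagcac
Axin2: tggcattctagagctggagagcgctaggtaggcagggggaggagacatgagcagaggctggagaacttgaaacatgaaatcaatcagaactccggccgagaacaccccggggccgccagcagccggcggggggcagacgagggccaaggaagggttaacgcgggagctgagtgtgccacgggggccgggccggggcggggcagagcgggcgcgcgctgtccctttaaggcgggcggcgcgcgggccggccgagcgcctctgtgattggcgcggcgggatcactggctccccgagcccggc
In Sp5, AACAAAG began 222 bases before the start (position -222) and the reverse complement of ATCAAAG began at position -104. In the Lef1 window TACAAAG began at position -147. A match is a description of the letters and not a bound site.

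Over all iMPC cells, 8 of the 10 genes were at least 2-fold higher than in MEF and none was 2-fold lower. Rnf43 and Sp5 did not reach 20 UMIs over both sides, the minimum for a call. Axin2 and Notum had 7 and 15 UMIs in MEF, so they reached it only through their iMPC UMIs. Of all 16255 genes with that minimum, 22.7% were at least 2-fold higher and 22.6% at least 2-fold lower. The median log2 ratio was 3.01 over the 8 genes and -0.08 over all genes. The level of each gene in MEF and in the 4 iMPC sets follows, by the role of its protein, and levels are compared within a gene and not between genes. Comparisons over MEF all share the MEF library, and the iMPC sets all come from the same library.

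**Figure D1:**
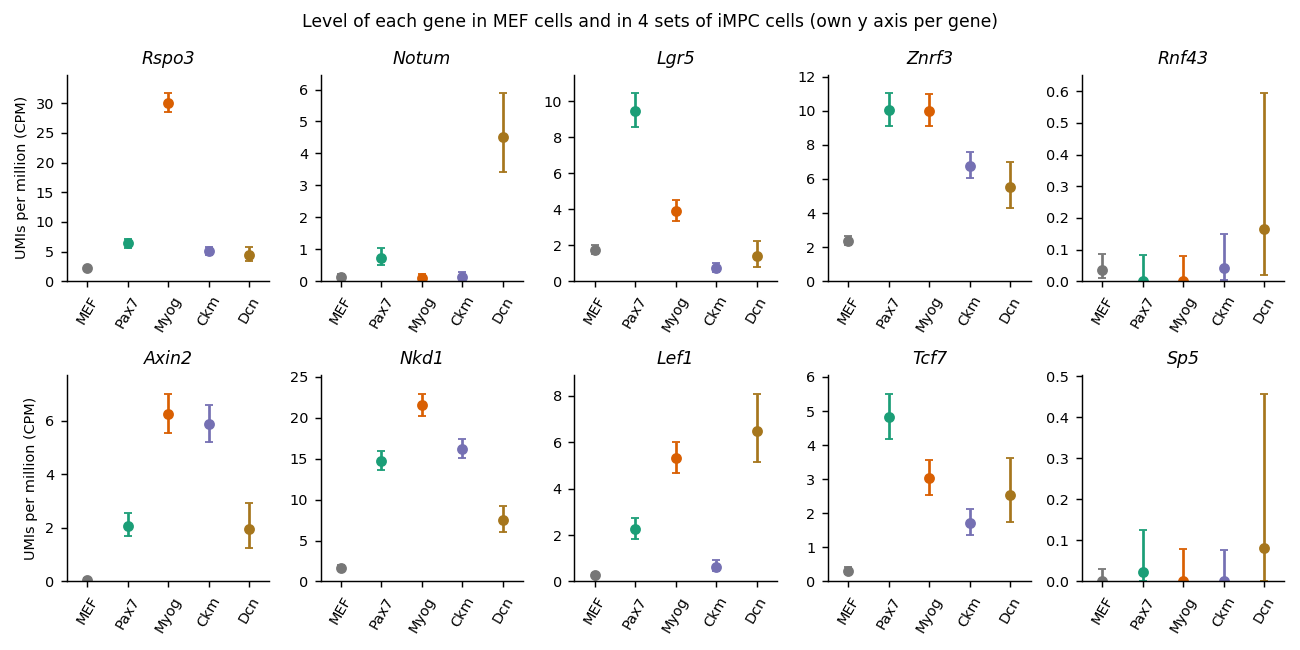
Level of each of the 10 genes in CPM (y axis, own scale per gene) in MEF cells and in the Pax7, Myog, Ckm and Dcn sets of iMPC cells; points are sums over cells and bars exact 95% Poisson intervals of counting error. Rspo3 peaked in the Myog set at 30.1 CPM, Lgr5 in the Pax7 set at 9.47 CPM and Notum in the Dcn set at 4.52 CPM, while Rnf43 and Sp5 stayed near 0.

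Axin2 (chr11:108920349-108950783, plus strand) encodes a scaffold of the destruction complex and is used widely as a readout of the pathway. In MEF it had 7 UMIs in 6043 cells, or 0.0593 CPM (0.0238 to 0.122). Its level was 2.09 CPM (1.68 to 2.56) in the Pax7 set, 6.26 (5.56 to 7.02) in the Myog set, 5.88 (5.22 to 6.60) in the Ckm set and 1.97 (1.26 to 2.93) in the Dcn set. The Myog and Ckm sets stood together at the top, the Pax7 and Dcn sets together below them, and the intervals overlapped within each pair but not between the pairs. MEF lay under all of them. Of the 24 Axin2 UMIs in the Dcn set, 6 lay in the 18 cells shared with the Myog set and 6 in the 18 shared with the Ckm set. In the 407 Dcn-set cells of no other set Axin2 stood at 1.36 CPM (0.678 to 2.43). The log2 ratio of the Pax7 over the Dcn set was 0.08, and 0.82 without doublets. The log2 ratio to MEF was 6.72 (5.66 to 8.05) in the Myog set and 5.14 (4.04 to 6.49) in the Pax7 set, and its width reflects the 7 UMIs of MEF.

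Nkd1 (chr8:88521354-88594884, plus strand) encodes an inhibitor that binds Dishevelled and dampens the signal. It stood at 1.70 CPM in MEF (1.48 to 1.95), 14.7 in the Pax7 set (13.6 to 15.9), 21.6 in the Myog set (20.2 to 22.9), 16.2 in the Ckm set (15.1 to 17.4) and 7.56 in the Dcn set (6.09 to 9.27). Only the neighbouring Pax7 and Ckm sets overlapped in this order. The log2 ratio to MEF ran from 2.15 (1.78 to 2.51) in the Dcn set to 3.66 (3.44 to 3.89) in the Myog set. Nkd1 had 3918 UMIs over all iMPC cells, the most of the 10 genes.

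Notum (chr11:120653788-120661175, minus strand) encodes a secreted enzyme that removes the lipid Wnt ligands need. Its level was 4.52 CPM in the Dcn set (3.40 to 5.88, 55 UMIs), 0.727 in the Pax7 set (0.497 to 1.03, 32 UMIs), 0.144 in the Ckm set (0.0578 to 0.296, 7 UMIs), 0.127 in MEF (0.0711 to 0.210, 15 UMIs) and 0.0866 in the Myog set (0.0236 to 0.222, 4 UMIs). The last 3 overlapped. The Dcn set exceeded MEF by a log2 ratio of 5.15 (4.31 to 6.08). Of the 32 UMIs in the Pax7 set, 17 came from the 110 cells that it shares with the Dcn set, and without the Dcn set its level was 0.359 CPM (0.201 to 0.593). The log2 ratio to MEF was 2.52 (1.59 to 3.51) in the Pax7 set and 1.5 without the shared cells.

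Znrf3 (chr11:5276324-5444847, minus strand) and Rnf43 (chr11:87662722-87735539, plus strand) encode related membrane ubiquitin ligases that clear Frizzled receptors from the cell surface. Znrf3 stood at 2.37 CPM in MEF (2.10 to 2.67), 10.0 in the Pax7 set (9.13 to 11.0), 10.0 in the Myog set (9.11 to 11.0), 6.78 in the Ckm set (6.07 to 7.56) and 5.50 in the Dcn set (4.27 to 6.99). The Pax7 and Myog sets could not be separated, nor could the Ckm and Dcn sets, and both pairs lay above MEF. Rnf43 was close to undetected. It had 4 UMIs in MEF, 9 over all iMPC cells, 2 in each of the Ckm and Dcn sets and 0 in the Pax7 and Myog sets. The exact upper limits of these counts of 0 were 0.0838 and 0.0798 CPM. A difference between the cultures in Rnf43 was not detectable at this depth.

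Lgr5 (chr10:115450311-115587780, minus strand) encodes a receptor for R-spondins and marks stem cells in the gut and other epithelia. Its level was 9.47 CPM in the Pax7 set (8.59 to 10.4), 3.92 in the Myog set (3.37 to 4.53), 1.73 in MEF (1.5 to 1.98), 1.40 in the Dcn set (0.813 to 2.24) and 0.719 in the Ckm set (0.501 to 1.0). MEF and the Dcn set overlapped, as did the Dcn and Ckm sets, and the other neighbours did not. The log2 ratio to MEF was 2.45 (2.21 to 2.70) in the Pax7 set, 1.18 (0.88 to 1.48) in the Myog set and -1.26 (-1.83 to -0.74) in the Ckm set. Lgr5 was therefore the only one of the 10 called lower than MEF in any set.

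Rspo3 (chr10:29452416-29535867, minus strand) encodes an R-spondin, a secreted protein that binds LGR receptors and inhibits Znrf3 and Rnf43, which strengthens the Wnt signal. It stood at 30.1 CPM in the Myog set (28.5 to 31.7, 1389 UMIs), 6.38 in the Pax7 set (5.66 to 7.18), 5.04 in the Ckm set (4.42 to 5.71), 4.44 in the Dcn set (3.33 to 5.79) and 2.15 in MEF (1.89 to 2.43). The Pax7, Ckm and Dcn sets formed a chain of overlapping neighbours, the Myog set lay far above them and MEF below. Its log2 ratio to MEF was 3.80 (3.61 to 4.0) in the Myog set and 1.57 (1.32 to 1.82) in the Pax7 set. The receptor Lgr5 and its ligand Rspo3 thus had their highest levels in different sets.

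Lef1 (chr3:131110471-131224356, plus strand), Tcf7 (chr11:52252371-52283014, minus strand) and Sp5 (chr2:70474923-70477729, plus strand) encode transcription factors, the first 2 of the family that carries beta-catenin to DNA. Lef1 stood at 6.49 CPM in the Dcn set (5.14 to 8.09), 5.30 in the Myog set (4.66 to 6.01), 2.25 in the Pax7 set (1.83 to 2.74), 0.637 in the Ckm set (0.433 to 0.904) and 0.263 in MEF (0.178 to 0.373). The Dcn and Myog sets overlapped and no other neighbours did. Tcf7 stood at 4.82 CPM in the Pax7 set (4.19 to 5.51), 3.03 in the Myog set (2.55 to 3.58), 2.55 in the Dcn set (1.73 to 3.61), 1.73 in the Ckm set (1.38 to 2.14) and 0.313 in MEF (0.221 to 0.432). Its 3 middle neighbours overlapped in turn, and the Pax7 set and MEF stood apart at the ends. Sp5 had 0 UMIs in MEF, with an exact upper limit of 0.0312 CPM, and 1 UMI in all iMPC cells, in a cell that belongs to both the Pax7 and the Dcn set.

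Each set was then compared with MEF by a call rule of at least 2-fold and at least 20 UMIs over both sides. In the Pax7 set 8 genes passed the minimum and all 8 were called higher, with a median log2 ratio of 2.81 against -0.07 over all genes. Of all genes in that comparison, 19.6% were called higher and 22.5% lower. In the Myog set 7 genes passed and all 7 were called higher, where 18.8% of all genes were higher and 30.2% lower. Notum did not pass there, with 4 UMIs against 15. Axin2, with 7 UMIs in MEF, and Notum can reach the minimum only through the iMPC side. A count in which every passing gene is higher therefore follows in part from the minimum, which was the same for all genes. In the Ckm set 6 of 8 were called higher and 1, Lgr5, lower, against 16.2% higher and 39.1% lower over all genes. Notum was within 2-fold (0.18, -1.36 to 1.56). In the Dcn set 7 of 8 were called higher and none lower, against 17.4% higher and 15.8% lower, and Lgr5 was within 2-fold (-0.31, -1.11 to 0.41).

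Some of these calls rest on the scaling or on few cells. Over all genes tested the median log2 ratio of the Ckm set to MEF was -0.62, and over the 9425 genes with at least 100 UMIs, which the alternative scaling uses, it was -0.45. Scaled by the latter, 43.1% of all called genes were higher in place of 29.3%, and Lgr5 stood at -0.81 and was no longer called. Without the 82 Ckm-set cells that a doublet caller marked (7.91%), Lgr5 in the Ckm set stood at -2.27. In the Dcn set the doublet caller marked 41 cells (7.41%), and without them 4 genes were called in place of 7. Znrf3 then stood at 0.75, Rspo3 at 0.61 and Axin2 came under the minimum of UMIs. The Lef1 call in the Ckm set (1.28, 0.51 to 2.05) ended at 0.82 when cells were weighted equally (CPM averaged over cells) and at 0.86 with stricter sets, and the Lgr5 call in the Myog set ended at 0.88 with cells weighted equally. Rspo3 in the Dcn set turned to -0.54 against MEF when cells of more than 1 set were left out. Of its 54 UMIs in the Dcn set, 17 lay in the 110 cells shared with the Pax7 set (7.44 CPM, 4.33 to 11.9), 16 in the 18 cells shared with the Myog set (24.9 CPM, 14.2 to 40.4), 9 in the 18 shared with the Ckm set (7.85 CPM, 3.59 to 14.9) and 12 in the 407 cells of no other set (1.48 CPM, 0.766 to 2.59).

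**Figure D2:**
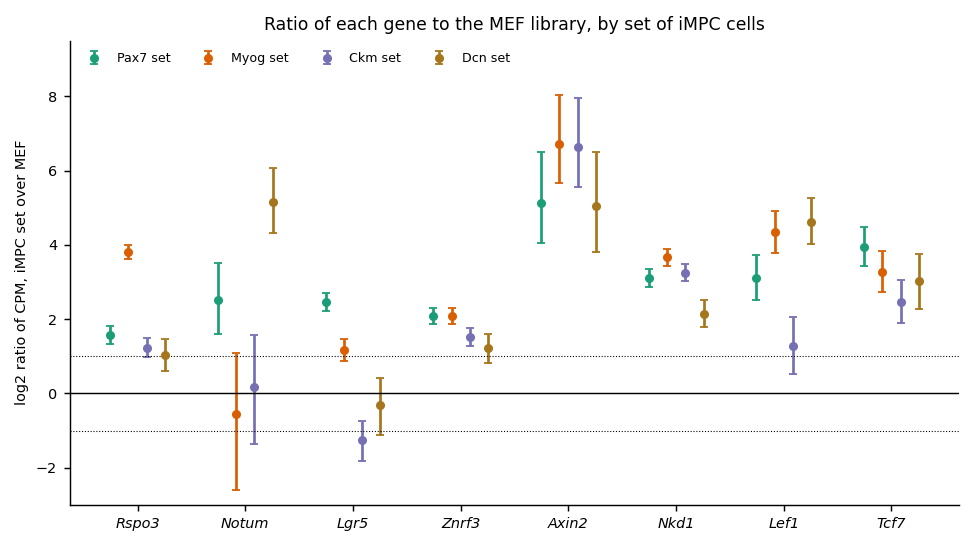
Log2 ratio of CPM to MEF (y axis) for the 8 genes with enough UMIs, in the Pax7, Myog, Ckm and Dcn sets; bars are exact 95% intervals of counting error and dotted lines mark 2-fold. Rspo3 in the Myog set lies at 3.80, and Lgr5 in the Ckm set lies at -1.26, under the MEF line.

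Within the iMPC library, where the culture, medium and library are shared, the Pax7 set was compared with the Myog set. Lgr5 (log2 ratio 1.27, 1.02 to 1.53) and Notum (3.07, 1.57 to 5.03) were called higher in the Pax7 set. Rspo3 (-2.24, -2.43 to -2.05), Axin2 (-1.58, -1.94 to -1.24) and Lef1 (-1.24, -1.59 to -0.90) were called lower. Of all genes, 17.3% were called higher and 8.75% lower in this comparison. Znrf3 was level at 0.01 (-0.19 to 0.20), Tcf7 stood at 0.67 (0.35 to 0.99) and Nkd1 at -0.55 (-0.70 to -0.41). Notum lost its call when cells of more than 1 set were left out, since it then had under 20 UMIs.

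Between the Pax7 and Ckm sets, 4 genes were called higher in the Pax7 set and 1 lower, against 36.0% and 13.5% of all genes. Lgr5 had the largest of these ratios at 3.72 (3.22 to 4.26), followed by Notum at 2.34 (1.13 to 3.76), Lef1 at 1.82 (1.22 to 2.45) and Tcf7 at 1.48 (1.11 to 1.86). Axin2 went the other way at -1.49 (-1.85 to -1.15). The median of all genes was 0.56 here, and scaling by the median gene ratio moved the share of called genes that were higher from 72.7% to 57.4% and Rspo3 from 0.34 to -0.09, while 4 higher and 1 lower remained the counts of called genes. Without doublets Lgr5 stood at 4.69.

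Against the Dcn set, Lgr5 was called higher in the Pax7 set (2.76, 2.07 to 3.56), and Notum (-2.64, -3.31 to -1.98, and -3.55 without cells of more than 1 set) and Lef1 (-1.53, -1.97 to -1.08) were called lower. Over all genes 8.42% were called higher and 14.1% lower. Nkd1 (0.96), Tcf7 (0.92) and Znrf3 (0.87) lay just under 2-fold. With cells of more than 1 set left out, 4 genes were called higher in place of 1, since Nkd1 (1.1), Znrf3 (1.1) and Rspo3 (2.09) passed 2-fold.

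The share of cells with a UMI was compared after each cell was thinned to 5000 UMIs, which left out 284 shallower MEF cells and no iMPC cell. Rspo3 was found in 13.8% of the Myog set (12.2 to 15.5), 2.84% of the Pax7 set, 2.12% of the Ckm set, 1.63% of the Dcn set and 0.972% of MEF. Unthinned, the same shares were 35.0%, 8.44%, 13.9%, 5.61% and 3.03%. Lgr5 was found in 4.77% of the Pax7 set (3.91 to 5.75), 1.97% of the Myog set and 0.677% of MEF, and unthinned in 14.6%, 7.83% and 2.20%. Nkd1 was found in 7.20% of the Pax7 set, 10.6% of the Myog set and 0.799% of MEF, and unthinned in 22.6%, 38.2% and 3.03%. Even for these genes most cells of a set held no UMI at the thinned depth, so shares are of cells with a UMI and not of expressing cells.

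By non-overlapping intervals, 7 genes had a higher thinned share than MEF in the Pax7 set, 7 in the Myog set, 5 in the Ckm set and 4 in the Dcn set, and 8 did so over all iMPC cells. The same was true of 28.8%, 26.0%, 19.2%, 20.5% and 30.4% of all genes. Axin2 had 3.31% in the Myog set and 3.28% in the Ckm set against 0.0347% in MEF, where 2 of 5759 cells held it. Lef1 had 3.80% in the Dcn set, 2.96% in the Myog set, 1.42% in the Pax7 set, 0.193% in the Ckm set and 0.139% in MEF. Tcf7 had 2.25% in the Pax7 set and 0.0695% in MEF, and Znrf3 had 5.41%, 5.97% and 1.06% in the Pax7 set, the Myog set and MEF. Notum had 2.17% in the Dcn set and 0.0868% in MEF. Thinning is a single random draw: in the Dcn set it left 1 cell with Axin2 and 8 with Znrf3, where the mean over draws would be 4.46 and 13.8 cells, so no order was read from these. The Dcn-set count of 4 leaves both genes out and so depends on the draw.

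RNA free in the droplets was gauged with Ckm, which satellite cells should lack. If all Ckm in the Pax7 set (5.22 CPM) were free RNA, it would make up 6.05% of that set's UMIs by the profile of barcodes with 1 to 100 UMIs, or 2.88% by that of barcodes with 200 to 600. At that rate free RNA would give a UMI of Nkd1 in 0.372% of thinned cells, of Rspo3 or Znrf3 in 0.186% and of the other genes in at most 0.0828%. The shares named above for the Pax7 set exceeded these values. Free RNA in the Myog set was not gauged, because that set is itself cut by Ckm.

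Finer sets by Myog and Ckm, chosen after the data were seen, ordered the cells from Pax7-positive to Ckm-high. Rspo3 stood at 6.38 CPM in the Pax7 set, 10.7 at 1 to 4 Myog UMIs, 28.3 at 5 to 19 and 30.8 (28.9 to 32.7) at 20 or more. It was 7.51 CPM (6.20 to 9.01) in cells with at least 5 Myog and 2 to 4 Ckm UMIs, and 4.85 and 5.33 in cells with 5 to 19 and with 20 or more Ckm UMIs. The high Rspo3 level was thus held by cells with Myog and at most 1 Ckm UMI. Lef1 was high in a later step: it was 1.88 and 2.47 CPM in the first 2 Myog steps, 6.46 (5.62 to 7.39) at 20 or more Myog UMIs, 4.18 at 2 to 4 Ckm UMIs and 0.377 (0.152 to 0.777) at 20 or more Ckm UMIs.

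Axin2 was higher from 5 Myog UMIs on and stayed so in the Ckm steps, from 1.95 CPM at 1 to 4 Myog UMIs to 4.71, 6.88, 7.11, 5.42 and 6.63 in the steps that followed. Nkd1 ran from 15.0 CPM at 1 to 4 Myog UMIs to 23.5 (21.9 to 25.3) at 20 or more, and was 11.3 (9.84 to 13.0) at 20 or more Ckm UMIs. Lgr5 was lower step by step up to the Ckm steps, with 9.47, 8.15, 6.21 and 2.98 CPM up to 20 or more Myog UMIs and 0.522 (0.225 to 1.03) at 2 to 4 Ckm UMIs. The intervals of its first 3 steps overlapped in turn. Tcf7 stayed between 4.82 and 5.47 CPM in the first 3 steps and between 1.69 and 2.25 in the other 4. For both Lef1 and Tcf7 the intervals of the first 3 steps overlapped. At 20 or more Myog UMIs the 2 transcription factors went opposite ways, Lef1 higher and Tcf7 lower. Median depth grew along this order, from 18729.5 UMIs per cell in the Pax7 set to 51997 at 20 or more Ckm UMIs. CPM divides by it.

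**Figure D3:**
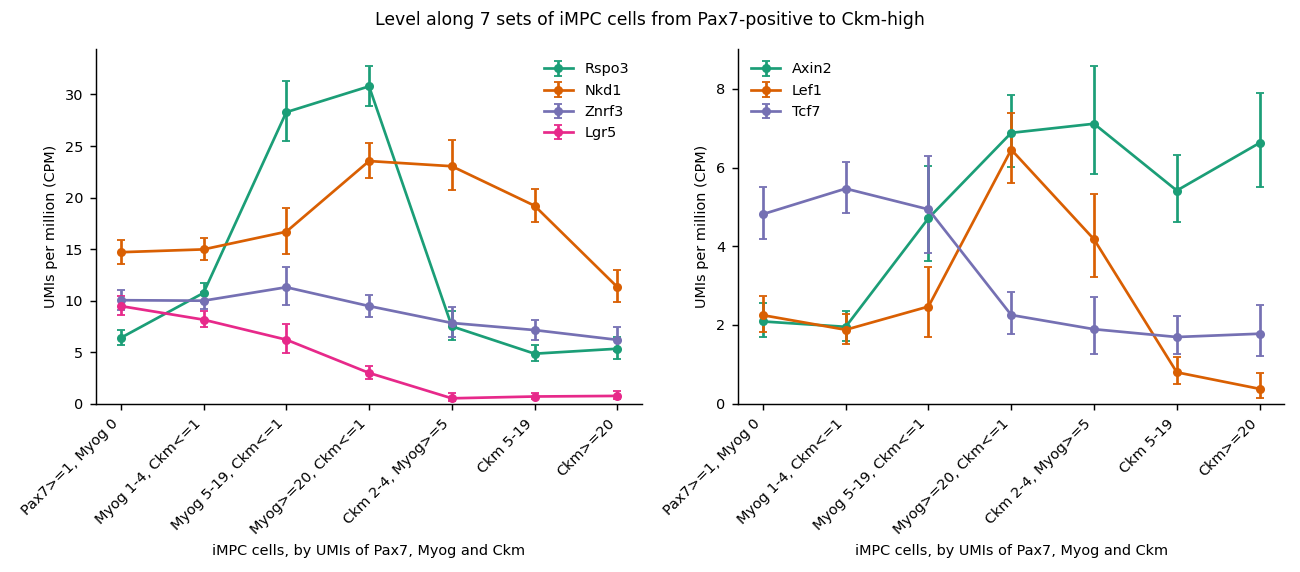
Level in CPM (y axis) of 7 genes along 7 sets of iMPC cells from Pax7-positive to Ckm-high (x axis), with exact 95% Poisson intervals of counting error; lines join the sets to guide the eye. Rspo3 is at 28.3 and 30.8 CPM in the sets with at least 5 Myog UMIs and at most 1 Ckm UMI and at 10.7 CPM or less in the others, and Axin2 stays at 4.71 CPM or more from 5 Myog UMIs on.

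Top2a, a topoisomerase of dividing cells, was used to split each set by proliferation. Cells with at least 2 Top2a UMIs were compared with cells without any, a split chosen after the data were seen. In the Pax7 set Lgr5 stood at 12.8 CPM (11.5 to 14.3) in 1085 Top2a-positive cells and at 4.06 (3.08 to 5.25) in 892 Top2a-negative cells, a log2 ratio of 1.66 (1.25 to 2.09). In the Myog set it stood at 7.58 against 0.949 CPM (3.0, 2.33 to 3.73). In the Ckm set 28 of its 35 UMIs came from the 110 Top2a-positive cells, and the levels were 3.90 and 0.138 CPM (4.82, 3.43 to 6.55). Lgr5 was thus higher in the Top2a-positive cells of each of these 3 sets. In the Ckm set the doublet caller marked 52 of the 110 Top2a-positive and 29 of the 827 Top2a-negative cells, and without them 10 and 4 UMIs were left (4.51, 2.71 to 6.63).

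Tcf7 had the same direction, with log2 ratios of 1.05 (0.54 to 1.58) in the Pax7 set, 0.87 (0.34 to 1.41) in the Myog set and 1.57 (0.83 to 2.28) in the Ckm set. Lef1 had the opposite one in the Pax7 set, at 1.30 CPM in Top2a-positive and 4.2 in Top2a-negative cells (-1.69, -2.34 to -1.06), and in the Myog set, at 3.34 and 6.78 CPM (-1.02, -1.46 to -0.60). Nkd1 and Axin2 had intervals that included 0 in these 3 sets. In the Dcn set, with 81 Top2a-positive and 419 Top2a-negative cells, Nkd1 stood at 12.0 and 5.57 CPM (1.11, 0.43 to 1.77), Rspo3 at 11.0 and 2.48 (2.15, 1.31 to 3.03) and Notum at 0.667 and 4.58 (-2.78, -5.88 to -0.83). There the doublet caller marked 24 of the 81 and 14 of the 419 cells. Of the 54 Rspo3 UMIs of the Dcn set, 12 lay in cells of no other set. The ratios of Tcf7 in the Ckm set and of these genes in the Dcn set are given with the marked cells kept. With Mki67 in place of Top2a the Lgr5 ratio was 1.22 in the Pax7 set and 2.48 in the Myog set. Top2a-positive cells were deeper, with a median of 22637 against 14938.5 UMIs in the Pax7 set, 28794 against 21288.5 in the Myog set and 62864.5 against 40022 in the Ckm set, and the part of depth was not tested.

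**Figure D4:**
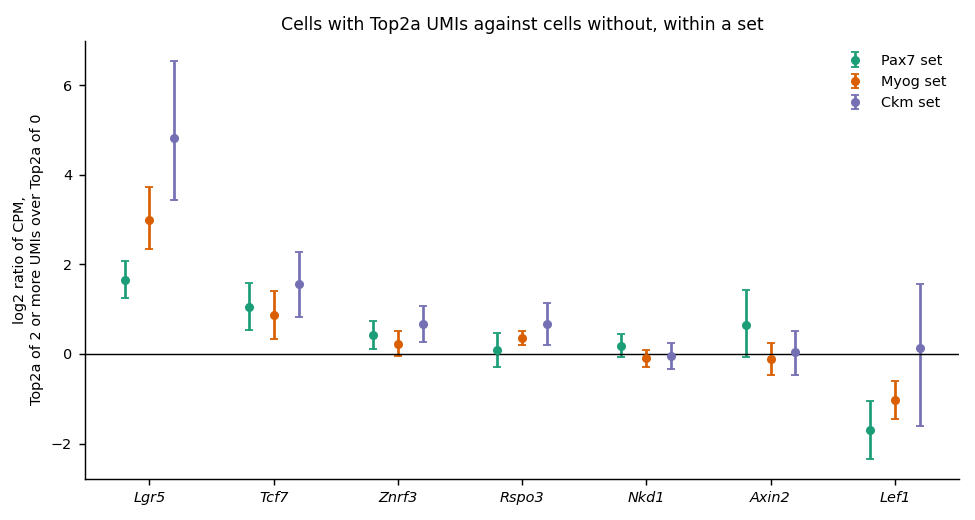
Log2 ratio of CPM between cells with at least 2 Top2a UMIs and cells with 0 (y axis) for 7 genes within the Pax7, Myog and Ckm sets of iMPC cells; bars are exact 95% intervals of counting error. Lgr5 lies above 0 in all 3 sets (1.66, 3.0 and 4.82), Lef1 lies below 0 in the Pax7 and Myog sets (-1.69 and -1.02), and Nkd1 lies near 0 in these 3 sets.

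The edges of the sets were looked at without a test. Cells with exactly 1 Pax7 UMI and no Myog (889 cells) held Lgr5 at 6.19 CPM and Znrf3 at 10.7, and cells with neither Pax7 nor Myog (1420 cells) held them at 4.36 and 6.44. At 5 or more Pax7 UMIs Lgr5 stood at 14.1 CPM (11.0 to 17.8). Notum was 0.546 CPM just inside the Pax7 limit and 3.75 just outside it. At the Myog limit Rspo3 was 24.7 CPM at 5 UMIs and 19.3 at 4, with overlapping intervals (18.1 to 33.0 and 14.6 to 25.1). At the Ckm limit Axin2 was 6.65 CPM at 5 UMIs and 10.6 at 4 (4.30 to 9.81 and 7.77 to 14.1). At the Dcn limit Nkd1 was 11.3 CPM at 5 UMIs (29 cells) and 12.3 at 4 (54 cells).

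Notum was held by few iMPC cells. The 36 cells with at least 2 UMIs held 119 of its 193 UMIs (61.7%), and 25 of them lay in none of the 4 sets, 8 in the Dcn set, 4 in the Pax7 set and 1 in the Ckm set. Among the genes with the largest ratio in those cells were Pthlh (197 against 0.824 CPM in the other cells), Ccdc88b, Clu and Plac8. Pthlh encodes a secreted peptide related to parathyroid hormone. In MEF, where Lgr5 had 204 UMIs, 39 cells with at least 2 UMIs held 110 of them (53.9%), and their leading genes were Igfbp3 (210 against 30.8 CPM), Frzb, Cxcl5, Dlk1 and Agtr2. Of the 254 Rspo3 UMIs in MEF, 110 (43.3%) came from 39 cells led by Mgp (6776 against 279 CPM), Gda, Fabp4, Ccn5 and Masp1. These genes were named after their values were seen, and the cells were chosen by the gene described. For Nkd1 in the Myog set, the 1% of cells with the most UMIs held 9.84% of them.

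The rest of the pathway was read from a list of 81 other Wnt genes. In the Pax7 set over MEF, 63 passed the minimum, of which 11 were at least 2-fold higher, 27 at least 2-fold lower and 25 within 2-fold, with a median log2 ratio of -0.54 against -0.07 over all genes. Against MEF, 13 of 66 were higher and 33 lower in the Myog set, 11 of 64 higher and 35 lower in the Ckm set, and 14 of 63 higher and 15 lower in the Dcn set. The shares of all genes called higher and lower were 19.6% and 22.5% for the Pax7 set, 18.8% and 30.2% for the Myog set, 16.2% and 39.1% for the Ckm set and 17.4% and 15.8% for the Dcn set. The higher counts of the list in the Pax7, Myog and Ckm sets were thus near those shares. The lower counts in these sets (27 of 63, 33 of 66 and 35 of 64) were above the shares of all genes called lower, and the reason was not tested. Some lower genes reached the minimum only through MEF, among them Wnt2 (178 UMIs in MEF and 7 in the Pax7 set) and Lgr6 (96 and 1). Some higher ones, such as Wnt6 (7 and 58), reached it only through the iMPC side. Both counts therefore follow in part from the minimum, which was the same for all genes.

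By role, 3 of 10 measured ligands were higher and 4 lower in the Pax7 set. Wnt5a, a ligand of mostly beta-catenin-independent signalling, stood at 36.8 CPM in the Pax7 set and 199 in MEF (-2.43), and Wnt4 at 11.2 and 16.2 (-0.54). Both secretion genes were within 2-fold: Wls, the carrier of Wnt proteins, at -0.50 and Porcn, which attaches their lipid, at 0.15. In the Ckm set Porcn stood at 26.8 CPM against 3.10 in MEF (3.11).

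Among 16 measured receptors 5 were higher and 7 lower in the Pax7 set. The Frizzled receptor Fzd4 stood at 1.46 CPM in MEF and 36.9 in the Pax7 set (4.66), Fzd2 at 118 and 14.0 (-3.07) and the Wnt5a receptor Ror2 at 10.1 and 1.45 (-2.79). Of the 8 measured genes listed as secreted inhibitors 6 were lower and 2 higher. The higher ones were Sfrp4 at 0.186 CPM in MEF and 3.77 in the Pax7 set (4.34) and Kremen1 at 16.3 and 60.4 CPM (1.89). Kremen1 is a membrane receptor for Dickkopf proteins and not secreted, but the list counts it here. Sfrp1, which binds Wnt proteins, was 35.1 CPM in MEF and 1.34 in the Pax7 set (-4.71), and the Dickkopf family members Dkk2 and Dkk3 were 81.9 and 5.45 CPM (-3.91) and 34.8 and 3.02 CPM (-3.53). Of the other R-spondins Rspo1 (47 UMIs in MEF and 1 in the Pax7 set) and Rspo2 (144 and 3) were lower, and Rspo4 was level in the Pax7 set (-0.13) but stood at 20.9 CPM in the Dcn set against 1.30 in MEF (4.01).

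None of the 6 destruction complex genes differed by 2-fold in the Pax7 set, and the kinase Csnk1a1 stood at 0.75, the ubiquitin ligase subunit Btrc at -0.35 and the scaffold Axin1 at -0.21. The paralogue Axin1 was thus level in the Pax7 set, where Axin2 stood at 5.14. In other sets 2-fold was passed: Axin1 stood at -1.37 in the Ckm set, and Csnk1a1 at 1.39 in the Myog set and 1.30 in the Ckm set. Gsk3b, the target kinase of the inhibitor, was 163 CPM in MEF and 144 in the Pax7 set. Of 9 transcription genes 2 were lower, Tcf7l2, another TCF family member, at 75.2 and 18.4 CPM (-2.03) and the coactivator Bcl9l at -1.10, and Bcl9 stood at 0.81. Beta-catenin itself, Ctnnb1, was 223 CPM in MEF and 130 in the Pax7 set, which is RNA and not protein.

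Of 9 measured other genes that respond to the pathway in some tissues, 1 was higher and 6 were lower in the Pax7 set. Tnfrsf19, a receptor of the TNF family, stood at 0.0423 CPM in MEF, 1.07 in the Pax7 set (4.66), 13.0 in the Myog set and 11.1 in the Ckm set. With 5 UMIs in MEF and 47 in the Pax7 set, it reached the minimum only through the iMPC side. The lower gene Ascl2 (58 UMIs in MEF and 8 in the Pax7 set) reached it only through MEF. Apcdd1, a membrane inhibitor of Wnt, was 15.1 CPM in MEF and 2.25 in the Pax7 set (-2.75), and the Notch ligand Jag1 was 23.8 and 7.0 CPM (-1.76). Genes known as responders therefore did not share a direction between the cultures.

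**Figure D5:**
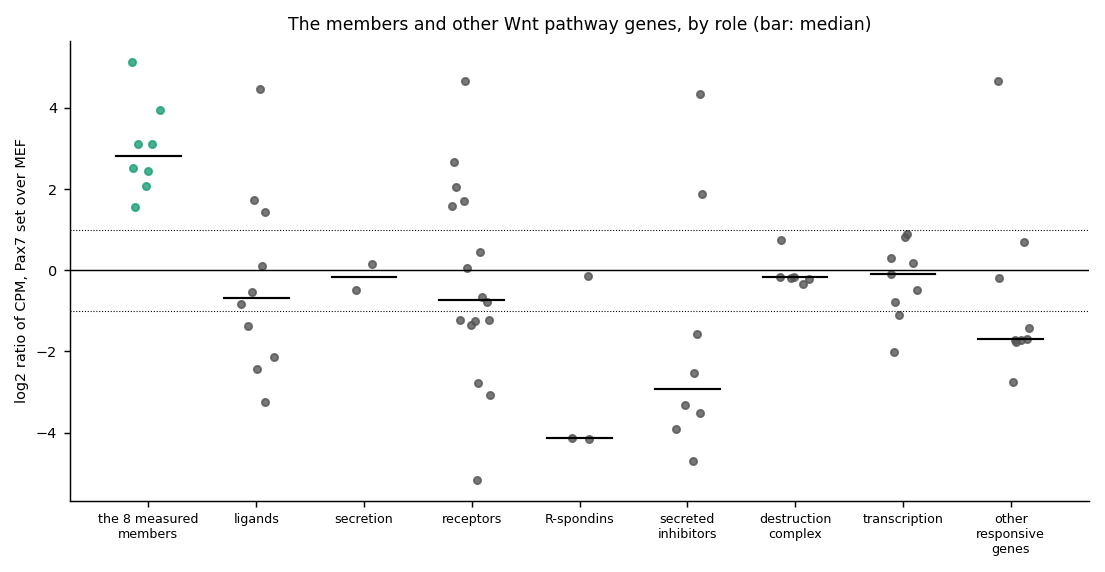
Log2 ratio of CPM between the Pax7 set and MEF (y axis) for the 8 measured responders and for the other Wnt genes with enough UMIs, by role (x axis); each point is a gene, the bar is the median and dotted lines mark 2-fold. The 8 responders lie between 1.57 and 5.14, and the 6 destruction complex genes all lie within 2-fold. Of the 8 genes listed as secreted inhibitors, 6 lie below -1 and 2 above 1, and the latter include the membrane receptor Kremen1.

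Genes with the most similar pattern were sought for the members that reached 10 CPM in a set, over 9256 other genes and the 5 sets (MEF and the 4 iMPC sets). The measure was the root mean square distance of log2(CPM + 1) after centring each gene. For Nkd1 these were Drp2 at 0.0986 and Ctnnal1 at 0.165, for Znrf3 Tfam at 0.0686 and Ccdc58 at 0.0709, and for Rspo3 Purb at 0.329 and Olfml2b at 0.369. By this distance Rspo3 was matched less closely than Nkd1 and Znrf3. The distance was not scaled by a gene's range over the sets, so it does not rank how unusual a pattern is. Olfml2b stood at 130 CPM in the Myog set and at 14.9 to 26.2 CPM in the others.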

How the data were processed

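Single-cell RNA was measured in 1 MEF and 1 iMPC library. The deposited matrices hold UMI counts per gene and barcode, which the submitters' processing notes tie to Cell Ranger 4.0, Seurat 3.2.3 and GRCm38.p6. No normalisation is recorded for these counts, and how the MEF barcodes were selected is not given in the sources used here. The iMPC matrix lists 6794880 barcodes and 282903287 UMIs, the MEF matrix 6113 barcodes and 118541302 UMIs.

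UMIs were summed over the cells of a set and divided by the set's total (CPM) in Python 3.11.15 with numpy 2.4.6, scipy 1.17.1 and pandas 2.3.3. A called gene differed at least 2-fold and had at least 20 UMIs over both sides. Intervals are exact at 95% (Poisson for levels, conditional for ratios, Clopper-Pearson for shares), cover counting error only, and a count of 0 was set to 3. Doublets were scored with Scrublet in scanpy 1.11.5: its own threshold marked 337 iMPC cells (3.60%), and in MEF, where it marked 1, the 302 highest scores (5.00%) were used. Doublets were kept in the reported values. The ratio code was tested on simulated data. The genes, lists, sets and alternatives were chosen with earlier results of these data known. All 10 members are named. Of the 81 pathway genes the text names up to 3 per role with the largest ratio between the Pax7 set and MEF among those at 10 CPM or more in a set. Ctnnb1, Gsk3b, Rspo1, Rspo2, Sfrp4 and Kremen1 are named besides, after their values were seen. Positions are from GENCODE M21 (GRCm38), in which 25989 of 26100 identifiers were found. There Lef1, Nkd1, Rnf43, Rspo3 and Tcf7 overlap another gene model on their own strand, so their counts could lose or gain reads, and whether the counting used strand is not given in the sources used here. Start-site sequences are from RefSeq.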

Additional observations from a re-analysis of the deposited data

Results flagged for a closer look

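Barcodes under the UMI minimum, which enter no comparison, also held these genes, in each case above the level that 3 UMIs would give there (0.342 CPM for barcodes of 1 to 100 UMIs and 0.141 CPM for those of 200 to 600). In the 2636580 iMPC barcodes of 1 to 100 UMIs, Nkd1 stood at 12.3 CPM, Znrf3 and Rspo3 at 6.16 CPM each, Tcf7 at 2.74 CPM, Axin2 at 2.63 CPM, Lgr5 at 2.40 CPM, Lef1 at 1.60 CPM and Notum at 0.457 CPM. In the 48846 barcodes of 200 to 600 UMIs, Nkd1 stood at 13.3 CPM, Rspo3 at 4.47 CPM, Znrf3 at 4.38 CPM, Axin2 at 3.72 CPM, Tcf7 at 2.07 CPM, Lgr5 at 1.27 CPM, Lef1 at 1.13 CPM and Notum at 0.518 CPM. Sp5 had 0 UMIs in both classes, and Rnf43 had 1 UMI in the first and 0 in the second.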

How the results depend on the processing

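No paired analysis was possible because each group had 1 library, and for the same reason no replicate could be left out. Of the counts of called genes and of higher shares, 221 kept within 1.5 times of the reported count and 28 moved. Of the log2 ratios of single genes 825 stayed inside their interval, 31 left it and 1 reversed, and of the shares 159 stayed and 141 moved. The reversal was Rspo3 in the Dcn set over MEF, at -0.54 without cells of more than 1 set. At 4-fold, 3 genes were higher and 0 lower in the Ckm set over MEF, 1 higher and 1 lower in the Pax7 over the Myog set, 2 higher and 0 lower over the Ckm set, and 1 lower over the Dcn set. Scaling by the median gene ratio left 0 genes lower in the Ckm set over MEF. In the Dcn set over MEF, 4 genes were higher without doublets and 1 was lower by the mean of each cell's CPM. In the Pax7 over the Myog set, 1 was higher without cells of more than 1 set. In the Pax7 over the Dcn set the count of higher genes was 2 by median scaling, by the mean of each cell's CPM and after subtracting either free RNA profile, 3 without mitochondrial and ribosomal protein genes in the total, without doublets and with stricter sets, and 4 without cells of more than 1 set and at 1.5-fold. There 4 genes were lower with no minimum of UMIs. With at least 2 UMIs per cell, the genes with a higher share than MEF numbered 2 in the Pax7 set, 2 in the Myog set, 1 in the Ckm set, 0 in the Dcn set and 3 over all iMPC cells. They numbered 3 in the Ckm set at 2000 UMIs per cell and 7 in the Dcn set without thinning. The fewer genes at 4-fold and at 2 UMIs follow from the stricter rule, and for the other settings the cause was not tested. The median log2 ratio that this scaling subtracts was -0.22 in iMPC over MEF, -0.14 in the Myog set, -0.45 in the Ckm set and, within iMPC, 0.17 for the Pax7 over the Myog set and 0.43 over the Ckm set. Depth limits Sp5 and Rnf43, which no set could separate from MEF, and Axin2, whose ratios rest on 7 MEF UMIs.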
